A study of Mus musculus with 12 samples.

Results

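N6-methyladenosine (m6A) is a methyl mark on adenosines within messenger RNA and long non-coding RNA, and it tends to lie in long internal exons and around the stop codon. It is written during transcription by a complex in which METTL3 is the catalytic subunit and METTL14 holds the RNA, is removed by the demethylases FTO and ALKBH5, and is bound by reader proteins of the YTH family that can shorten the life of the marked RNA. In m6A-seq, RNA fragments are pulled down with an antibody against m6A (IP) and sequenced beside the unselected RNA (input), and a peak is a stretch where IP exceeds input. The regions described here are the m6A peaks of the control limb buds that had no counterpart in the Mettl14 knockout. A control peak was taken when its interval overlapped no knockout peak by even 1 base on the same chromosome and strand. Of 41196 control peaks, 5211 (12.6%) met that rule and 35985 had a counterpart. In the other direction, 9561 of 46758 knockout peaks (20.4%) overlapped no control peak, so the knockout list was the longer one and the control list held the smaller share of unmatched peaks.

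The RNA came from mouse limb buds at E12.5, when cartilage condensations of the limb skeleton form. The control group, cHet, had the genotype Mettl14 wt/flox (1 floxed allele), and the knockout group, cKO, was the conditional knockout with both alleles floxed (Mettl14 flox/flox), so that every library carried at least 1 floxed allele. For the Cre driver, the deleted exons, the strain and the number of embryos per replicate, nothing is stated in these sources. Input and IP each had 3 biological replicates per genotype, 12 libraries in 4 groups, while the deposited peak tables hold 1 list per genotype. There is thus no replicate of a peak, and no difference between the lists could be tested.

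The members were chosen by the peak calls of both lists, so region class, length and enrichment are given as descriptions. The log2 enrichment of IP over input and its adjusted p belong to each peak and are the authors' own values, used below only to describe peaks within the control list. An interval in the lists runs over the genome and can include introns, so a long span does not mean a long stretch of enriched RNA.

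Where RefSeq gives sequence (assembly GRCm38.p6, the primary coordinates of mm10), the letters of the unmatched peaks could be read. Only the windows around annotated gene starts and the miRNA loci were covered, and of 341 unmatched 5'UTR or start codon peaks of up to 2000 bases, 103 overlapped the start window of their gene. The sites below show the letters GGACT, the form most often quoted for the methylated motif. They lie in 5 peaks of high enrichment on genes of at least 1 FPKM in each genotype. FPKM stands for fragments scaled to transcript length and library size. Not every chromosome was open to this choice, so a peak of higher enrichment may be missing. The 5 peaks were chosen after these values were seen. Capitals mark GGACT, each line reads 5′ to 3′ on the strand of the gene, and the letters are DNA letters from RefSeq.
Insyn1, chr9:58488603-58488631: GGACTttccccaccgttgatggagccgac
Alkbh5, chr11:60537666-60537694: cggtcacggggcGGACTgggttgtggcga
Cdc42bpa, chr1:179960536-179960564: ctttgccgcggaGGACTcgcccaggcgct
Antxr2, chr5:98031010-98031038: gcggaagaggaGGACTcggctgagttccc
Adcy3, chr12:4133411-4133439: agcgcagcgcacGGACTcggctggctcgc
The peaks that hold these sites had log2 enrichments of 2.54 on Insyn1, 2.34 on Alkbh5, 2.19 on Cdc42bpa, 2.04 on Antxr2 and 1.83 on Adcy3. Alkbh5 encodes one of the m6A demethylases. Searched on the strand of the gene, GGACT was present in 12 of the 103 unmatched regions (11.7%) and in 122 of 993 regions of peaks with a counterpart (12.3%). Over all RefSeq start windows, the same positions and lengths held it in 10.7%, and whole windows of 300 bases in 26.1% of 32817. Per 1000 bases there were 1.28 occurrences in unmatched regions, 1.14 in matched regions and 1.03 in all windows. The motif was thus about as frequent in the unmatched regions as in the background, and a match is a run of letters, not a methylated site.

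An unmatched peak coincided with a whole miRNA gene. The peak chr12:109591715-109591838 on the plus strand matched base for base the 124-base hairpin of Mir433, a miRNA gene of the imprinted Dlk1-Dio3 region, and had a log2 enrichment of 2.31. Only 15 of 5211 unmatched peaks reached outside their annotated gene, so equal ends do not show how far the enrichment extends. The hairpin below is written in RNA letters with the mature arms mmu-miR-433-5p and mmu-miR-433-3p in capitals.
Mir433 hairpin: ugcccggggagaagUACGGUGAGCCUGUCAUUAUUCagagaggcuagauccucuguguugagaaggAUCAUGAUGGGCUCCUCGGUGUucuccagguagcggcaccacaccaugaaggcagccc
Neither GGACT nor GGAC occurs in it (0 of each). Among peaks of up to 2000 bases, 3 hairpins lay at least partly in an unmatched peak and 44 in a matched one. The other 2 were Mir5114 in a 3'UTR peak of Scd2 and Mir6935 in a 3'UTR peak of Actg1. The 3 loci have different seeds (bases 2 to 8, in capitals).
mmu-miR-433-3p: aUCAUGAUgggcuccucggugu
mmu-miR-5114: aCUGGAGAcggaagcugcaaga
mmu-miR-6935-3p: uGUUCUUUgucuuuccacag

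By their medians, the unmatched peaks were shorter, weaker and on genes of lower expression than the matched peaks. Their median span was 300 bases, against 930 for peaks with a counterpart. Their median log2 enrichment was 1.40, with the 10th and 90th percentiles at 0.95 and 3.35, against 1.93 (1.18 and 3.29) for matched peaks. The gene under the peak had a median cHet input level of 2.08 FPKM, against 5.15 FPKM. Of 5126 unmatched peaks whose gene has a row in the expression table, 1899 (37.0%) lay on a gene under 1 FPKM in cHet, while among matched peaks this was 5814 of 35584 (16.3%). All 5126 lay on the strand of their gene.

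The share differed between region classes, in part along with span. Peaks at the stop codon, the best known place of m6A, lacked a counterpart in 437 of 7793 cases (5.61%) and start codon peaks in 188 of 3400 (5.53%). The 3'UTR supplied the most unmatched peaks, 2017 of 15052 (13.4%), followed by peaks labelled exonic with 1075 of 7186 (15%). The 5'UTR stood at 265 of 2043 (13.0%). Exons of non-coding RNA reached 778 of 3798 (20.5%) and introns 424 of 1802 (23.5%). The order of the classes did not stay the same at each expression level. On genes of 1 to 5 FPKM, 28.4% of intronic and 4.59% of stop codon peaks were unmatched, and on genes of at least 20 FPKM the shares were 17.6% and 3.04%. On genes under 1 FPKM the intronic share (21.9%) was below that of exonic peaks (30.3%), and stop codon peaks had 14.8%. The low share at the stop codon went in part with long intervals. Of the 7793 stop codon peaks, 4124 spanned over 2000 bases, and 2.4% of those were unmatched. Among peaks of 100 to 200 bases the stop codon (28%), 3'UTR (28.5%) and 5'UTR (28.4%) were alike. There, start codon peaks stood at 20.1%, introns at 32.7% and exonic peaks at 40.1%. In the next class of span, up to 500 bases, the order turned, with 18.3% at the stop codon, 13.2% in the 3'UTR and 17.9% in introns. In the longer classes the stop codon stood lowest of the region classes named here. From there up to 2000 bases it had 5.05%, against 6.13% in the 3'UTR, 6.25% at start codons and 6.76% in introns. Over 2000 bases it had 2.4%, against 2.85% at start codons, 4.66% in the 3'UTR and 18.5% in introns.

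**Figure D1:**
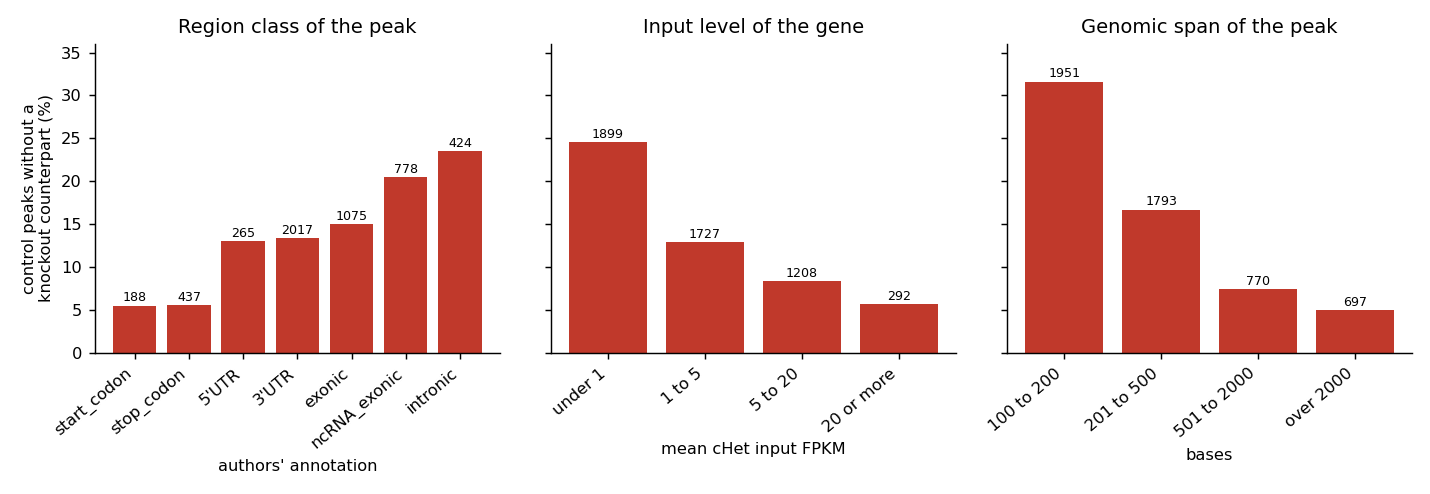
Bars give the percentage of control peaks without a knockout counterpart, by the authors' region class, by the mean cHet input FPKM of the gene and by the genomic span of the peak in bases, and the number on each bar is the count of unmatched peaks. Start and stop codon peaks stand lowest among the region classes at 5.53% and 5.61%, and the share falls from 24.6% on genes under 1 FPKM to 5.71% on genes of at least 20 FPKM.

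Expression level and span went with the share in the same way across the list. By cHet input level the share was 24.6% under 1 FPKM, 12.9% from 1 to 5, 8.35% from 5 to 20 and 5.71% from 20 upwards. By span it was 31.6% for peaks of 100 to 200 bases and 5.0% for those over 2000 bases. Within each level the short peaks remained the more often unmatched, for example 52.0% against 11.8% under 1 FPKM and 12.7% against 1.45% from 20 FPKM. The longer an interval, the more easily it meets a knockout peak by position alone, and the part of span, level and enrichment in the share was not tested.

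High enrichment among the unmatched peaks belonged mostly to scarce transcripts. Of 755 unmatched peaks with a log2 enrichment of at least 3, 657 (87.0%) lay on genes under 1 FPKM in cHet or without a row. On genes from 5 to 20 FPKM there were 25 such peaks, 1.33% of the control peaks of that strength and level, and from 20 FPKM there were 10 (2.39%). On genes from 5 to 20 FPKM the median log2 enrichment was 1.27 without and 1.83 with a counterpart, whereas under 1 FPKM it was 2.34 and 2.45.

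**Figure D2:**
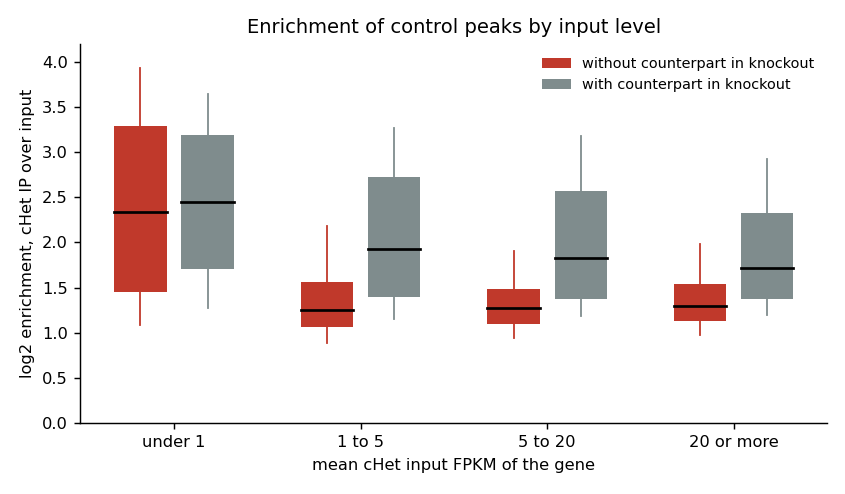
Boxes span the 25th to 75th percentile of the log2 enrichment of IP over input in the control list, whiskers the 10th to 90th, and black lines the median, for peaks without (red) and with (grey) a knockout counterpart at 4 cHet input levels. The medians lie close together under 1 FPKM (2.34 and 2.45) and apart from 5 to 20 FPKM (1.27 and 1.83).

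Lack of overlap did not always mean lack of a neighbouring peak. A knockout peak began or ended within 25 bases of 239 unmatched peaks (4.59%), within 100 bases of 614 (11.8%) and within 500 bases of 1851 (35.5%). No knockout peak lay within 5000 bases on the strand for 1652 (31.7%). A further measure of the edge is that 288 unmatched peaks (5.53%) were overlapped by a knockout peak on the opposite strand. The 239 peaks just inside the rule had a median span of 175 bases, a median log2 enrichment of 1.23 and 3.3 FPKM. The 96 matched peaks just outside it, which overlapped by 1 to 25 bases, had 175 bases, 1.26 and 3.44 FPKM. These groups on either side of the limit were thus alike in all 3 measures.

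By gene, the unmatched peaks were spread thinly. They fell on 4047 of 16615 genes that have a control peak (24.4%), and 3183 of the 4047 had a single one, 658 had 2, 153 had 3 and 53 had at least 4. Most of these genes, 3111 of 4047 (76.9%), also had a control peak with a counterpart. On 936 genes each control peak was unmatched, and 826 of them had no knockout peak at all. Of the 826, 651 had a single control peak and 88 had at least 1 FPKM in each genotype.

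Mettl14 itself was lower in the cKO input. Its FPKM was 5.08, 4.54 and 4.39 in cHet and 2.67, 3.07 and 2.63 in cKO. Its groups did not overlap, as in 6947 of 13575 tested genes, and cKO held 59.8% of the cHet mean. On the log2(FPKM + 1) scale, on which all changes below are given and which understates changes of low genes, it fell by 0.58 (SE 0.0791, limma adjusted p = 0.00289). FPKM covers the whole gene, and the part of transcripts without the floxed exons in the remaining RNA was not tested. Its mRNA carried 7 control peaks, of which a 3'UTR peak of 150 bases, chr3:123370722-123370871, was unmatched with a log2 enrichment of 0.96, the lowest of the 7. The nearest knockout peak was 325 bases away.

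On genes of the m6A machinery, as over the whole list, most control peaks were matched. The writer list, Mettl14 included, had 42 control peaks. Of these 4 (9.52%) were unmatched, on Mettl14, Rbm15b and Pcif1, beside 12.6% of all control peaks. Rbm15b, an adaptor of the writer complex, had an unmatched 3'UTR peak of log2 enrichment 1.12, and its input rose from 18, 18 and 17.4 FPKM to 28.4, 28.5 and 30.5 FPKM (log2 change 0.68, SE 0.0538, limma adjusted p = 0.000691). Pcif1, which methylates the cap-adjacent adenosine and not the internal one, had unmatched peaks in its 5'UTR (1.54) and 3'UTR (1.85), and did not pass the test (log2 change 0.28, limma adjusted p = 0.0636). Of 47 control peaks on readers and erasers 1 was unmatched (2.13%), the 5'UTR peak of Alkbh5 shown above. Alkbh5 input was 12 ± 0.506 FPKM in cHet against 13.8 ± 0.361 FPKM in cKO (SD, n = 3), with no overlap (log2 change 0.19, limma adjusted p = 0.0372), a call that did not pass in 8 of 14 alternative settings.

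Unmatched peaks were frequent on genes of hypertrophic cartilage and bone. The list of RUNX, hypertrophic and osteoblast genes had 46 control peaks, of which 13 (28.3%) were unmatched, on 9 of its 16 genes. The 13 became 10 when peaks within 100 bases of a knockout peak also counted as matched. The share over all control peaks was 12.6%, on genes of 1 to 5 FPKM 12.9% and on genes under 1 FPKM 24.6%. On genes of at least 1 FPKM in each genotype, 6 of 25 control peaks of the list were unmatched (24.0%), 4 of them on Runx2. Over all such genes the share was 9.49%. In input RNA, 11 genes of the list were tested, 6 fell and 1 rose, where over all 13575 tested genes 17.5% fell and 18.7% rose. The 9 genes with an unmatched peak ranged from 0.371 FPKM (Col10a1) to 21.5 FPKM (Pth1r) in cHet, and the part of expression level in the 28.3% was not tested.

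Runx2, the transcription factor that osteoblasts need and that drives chondrocyte hypertrophy, had 7 control peaks with 4 unmatched. In the 3'UTR, chr17:44495987-44496786 had a log2 enrichment of 3.15 with a knockout peak 275 bases away, and chr17:44496912-44497036 had 1.64 with one 25 bases away. That neighbour is a knockout interval of 107132 bases with a log2 enrichment of 1.21, itself without a control counterpart. The other 2 were at the 5′ end, a 5'UTR interval of 77457 bases (1.40) and an exonic peak of 225 bases (1.46). Runx2 input was 4.12, 3.54 and 3.79 FPKM in cHet against 2.46, 2.01 and 1.98 FPKM in cKO. It fell by 0.61 on the log2 scale (SE 0.0869, limma adjusted p = 0.00322), with no overlap of the groups.

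Runx3, which acts beside Runx2 in cartilage, had an unmatched peak at its stop codon (chr4:135175638-135176412, log2 enrichment 2.09), while its 3'UTR peak had a counterpart. Its input was 1.24, 1.46 and 1.89 FPKM in cHet against 0.538, 0.535 and 0.399 FPKM in cKO, and it fell by 0.76 (SE 0.114, limma adjusted p = 0.00378). Ihh, the signal from prehypertrophic chondrocytes, had an unmatched exonic interval, chr1:74948141-74950974, with a log2 enrichment of 1.92. Its input was 1.32, 1.34 and 1.76 FPKM in cHet against 0.278, 0.374 and 0.293 FPKM in cKO, below the limit for testing. Ptch1, of the limb patterning list, is the hedgehog receptor and a target of the pathway, and had an unmatched 5'UTR interval, chr13:63565608-63573338, with a log2 enrichment of 3.78, the highest of its 4 control peaks. Ptch1 fell from 5.42, 5.51 and 5.59 FPKM to 3.74, 4.11 and 3.54 FPKM (log2 change -0.44, SE 0.0658, limma adjusted p = 0.0037).

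Panx3, Ibsp and Col10a1 had no knockout peak and little RNA. Panx3, a channel protein of hypertrophic chondrocytes and osteoblasts, had both of its control peaks unmatched, at the stop codon (3.27) and the start codon (2.30), and no knockout peak. Its input was 1.42, 1.99 and 2.44 FPKM in cHet against 0.14, 0.103 and 0.143 FPKM in cKO, so cKO held 6.61% of the cHet mean (log2 change -1.37, limma adjusted p = 0.00117). Ibsp, bone sialoprotein, had a single control peak (2.90) and no knockout peak. It was at 1.36, 1.77 and 0.172 FPKM in the cHet libraries, while each of the 3 cKO libraries listed it at 0. Col10a1, the collagen of hypertrophic cartilage, had a single, unmatched 3'UTR peak (1.60) and was at 0.275, 0.417 and 0.422 FPKM in cHet against 0.0417, 0.0 and 0.0629 FPKM in cKO. In bulk tissue, fewer cells of a type and less RNA per cell cannot be told apart.

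The other 3 genes of the list kept a matched peak as well. Spp1 (osteopontin) had an unmatched 3'UTR peak of 125 bases (0.96) lying 75 bases from a knockout peak. Sp7, the osteoblast factor osterix, had an unmatched 3'UTR peak (1.20) and did not pass the test, with 1.8, 1.47 and 1.6 FPKM in cHet against 0.904, 1.17 and 1.39 FPKM in cKO (limma adjusted p = 0.0737). Pth1r, the receptor of parathyroid hormone-related protein, rose from 19.8, 22.5 and 22.3 FPKM to 30.4, 27.1 and 25.5 FPKM (log2 change 0.35, limma adjusted p = 0.0197), a call lost in 3 of 14 alternative settings. Its unmatched 5'UTR peak of 200 bases (1.16) was 100 bases from a knockout peak.

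**Figure D3:**
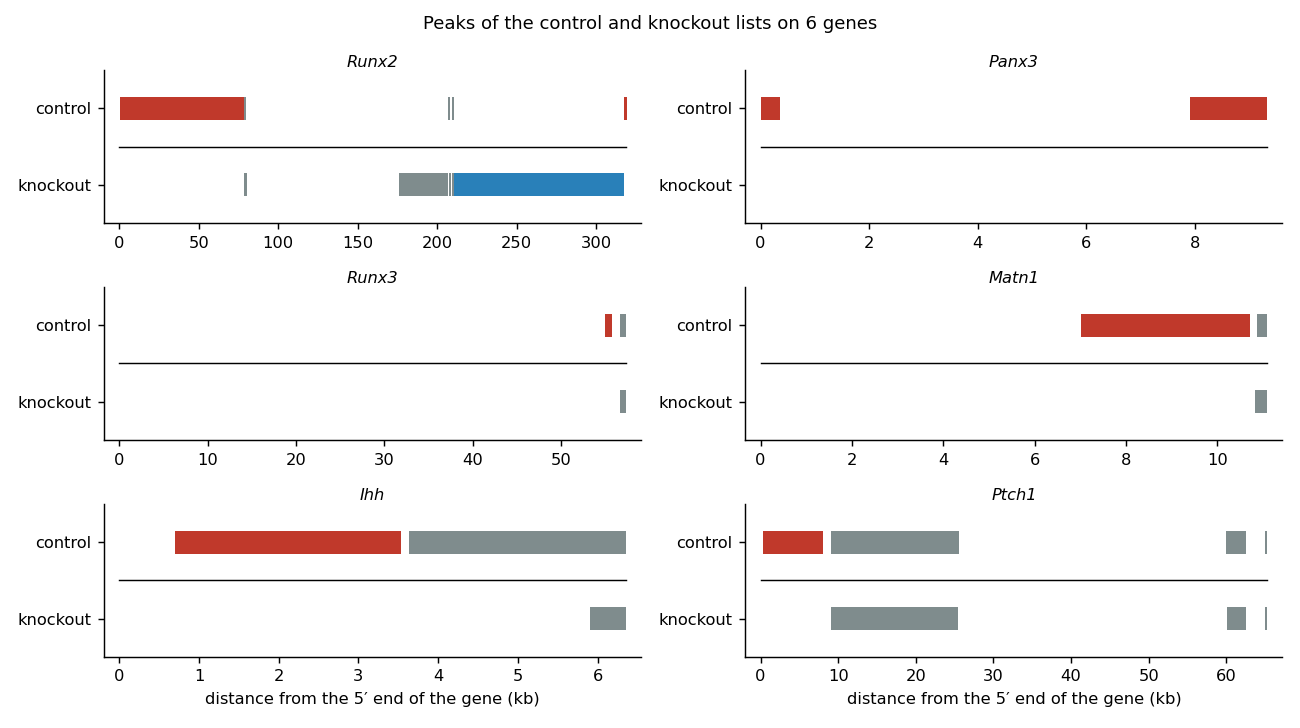
For 6 genes, rectangles mark the peaks of the control list (above the line) and of the knockout list (below), placed in kb from the 5′ end of the gene, and the line spans the annotated gene. Control peaks without a counterpart are red, knockout peaks without a counterpart are blue, and matched peaks of both lists are grey, so that the 2 unmatched intervals of Panx3 stand over an empty knockout row.

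On cartilage genes the unmatched share was near that of all control peaks. The cartilage list had 69 control peaks and 8 unmatched ones (11.6%), or 12 (17.4%, against 15.5% of all control peaks) when knockout peaks had to reach a log2 enrichment of 1 and an adjusted p under 0.01. In input RNA, 18 of its 22 tested genes fell and 4 did not pass the test, where 17.5% of all tested genes fell. Of its 6 genes with an unmatched peak, 4 were tested and fell, with a median log2 change of -0.93. Of its 18 tested genes whose control peaks were all matched, 14 fell, with a median of -1.11. The falls were thus not particular to genes with an unmatched peak. Matn1, a cartilage matrix protein, had an unmatched stop codon interval (1.61), 100 bases from a knockout peak, and was at 10.3, 9.55 and 9.78 FPKM in cHet against 3.79, 2.8 and 2.53 FPKM in cKO. It fell by 1.44 (SE 0.117, limma adjusted p = 0.000733). Col9a3, a chain of type IX collagen, had an unmatched start codon peak of 100 bases (1.91) beside 2 matched peaks. It was at 26.5, 28.2 and 28.6 FPKM in cHet against 11.5, 10 and 9.62 FPKM in cKO (log2 change -1.34, limma adjusted p = 0.000484). Fgfr3, the receptor that restrains chondrocyte growth, had both control peaks unmatched, at the start codon (1.47) and the stop codon (1.83), with a knockout peak 825 bases from the latter. It fell from 4.85, 5.41 and 5.9 FPKM to 3.57, 3.36 and 3.45 FPKM (log2 change -0.52, limma adjusted p = 0.00363). Snorc, a chondrocyte membrane proteoglycan, had its single control peak (1.89) unmatched and was at 1.3, 1.27 and 1.65 FPKM in cHet against 0.256, 0.0 and 0.0 FPKM in cKO.

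**Figure D4:**
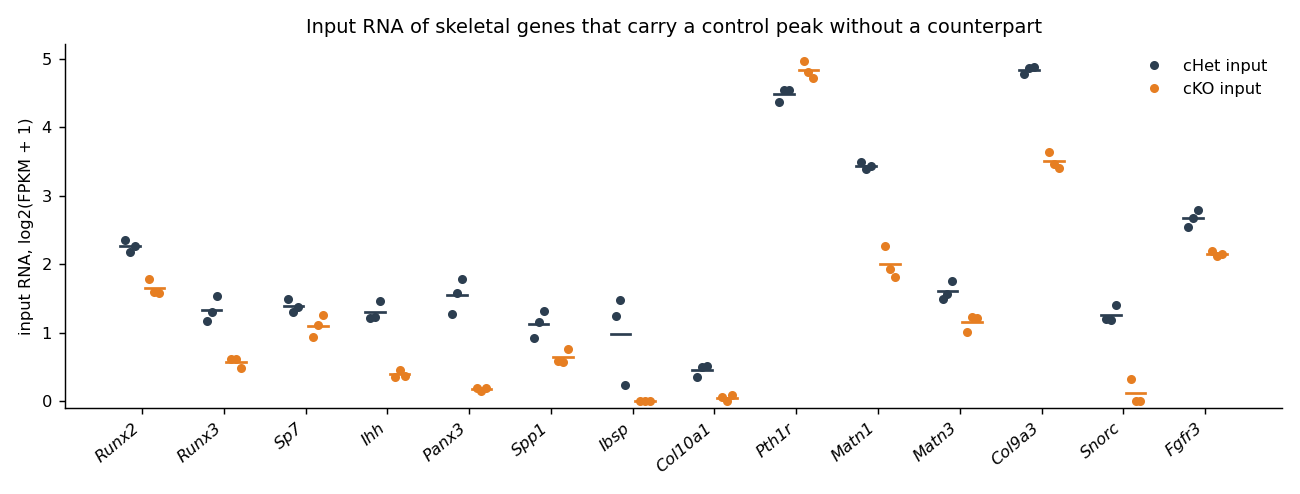
Each point is the input level of 1 library as log2(FPKM + 1), 3 cHet (dark) and 3 cKO (orange) per gene, and short lines are group means, for 14 skeletal genes with an unmatched control peak. In all of them the points of the genotypes do not overlap, and Pth1r is the one gene whose cKO points are higher. Over all genes tested, the groups did not overlap in 6947 of 13575.

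The other pathway lists ranged from 7.29% to 11.9%, beside 12.6% of all control peaks. Unmatched peaks made up 7 of 72 on BMP and GDF genes (9.72%), 5 of 46 on matrix proteases and their inhibitors (10.9%), 8 of 94 on limb patterning factors (8.51%), 7 of 96 on Wnt genes (7.29%) and 5 of 42 on FGF genes (11.9%). With the stricter knockout peaks the count became 9 on proteases (19.6%), 12 on Wnt genes, 7 on FGF genes (16.7%) and 7 on the writers (16.7%), against 15.5% of all control peaks. Both Smad4, the common mediator of BMP and TGF-beta signals, and Smad6, an inhibitor, had 2 unmatched peaks, and neither passed the test (limma adjusted p = 0.0715 and 0.0925). Msx2, a homeobox factor induced by BMP, had an unmatched intronic peak of low enrichment (0.77) and rose from 10.1, 10.2 and 11.2 FPKM to 25.5, 24.8 and 30.6 FPKM (log2 change 1.28, SE 0.0905, limma adjusted p = 0.000593). Timp3, an inhibitor of matrix metalloproteases, fell from 21.3, 21.4 and 20.9 FPKM to 15.4, 14.7 and 14.4 FPKM (log2 change -0.49, limma adjusted p = 0.00155), and its unmatched 5'UTR interval had a log2 enrichment of 1.51.

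On markers of the other cells of the limb the unmatched share ranged from 0.0% to 9.38% by list, beside 12.6% of all control peaks. There were 0 of 27 control peaks on skeletal muscle genes, 0 of 14 on erythroid, 0 of 25 on epidermis, 0 of 21 on Schwann and neural, 1 of 25 on macrophage and leukocyte and 3 of 32 on endothelial genes. On all genes of at least 20 FPKM in cHet the share was 5.71%, and the part of expression level in these counts was not tested. The summed level of the 16 muscle genes was 638 to 707 FPKM in cHet against 411 to 634 FPKM in cKO. Of the 15 tested 7 fell, beside 17.5% of all tested genes. That count ran from 1 to 15 when single libraries were left out. It was 1 without cHet replicate 2, cKO replicate 2 or cKO replicate 3, and 15 without cKO replicate 1. These values stand beside the falls of skeletal genes above. The epidermis markers summed to 191 to 213 FPKM in cHet against 224 to 234 FPKM in cKO, with no overlap. Of 12 tested 4 rose, beside 18.7% of all tested genes. The part of these markers in the skeletal results was not tested. Endothelial markers gave 84.0 to 95.1 FPKM in cHet against 76.2 to 82.1 FPKM in cKO. The 36 limb patterning genes summed to 755 to 783 FPKM in cHet against 944 to 1101.9 FPKM in cKO, so genes of the labelled tissue were expressed in each library. The sum of all FPKM lay between 261691.5 and 275299.5 in the cHet libraries and between 237287.9 and 255907.3 in the cKO libraries, and the number of fragments behind them is unknown.

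Among genes of at least 1 FPKM in each genotype, the 10 unmatched peaks of highest enrichment sat on genes of varied function. Of these 10 genes 6 did not pass the input test, while 36.2% of all tested genes passed it. On genes under 1 FPKM in cHet unmatched peaks reached 6.06. The start codon peak of Osbpl10, a lipid-binding protein of the oxysterol-binding family, led with 6.78 (chr9:114978569-114978868, 300 bases), and no knockout peak lay within 229224 bases. Osbpl10 rose from 1.18, 1.26 and 1.54 FPKM to 2.07, 2.11 and 2.09 FPKM (log2 change 0.41, limma adjusted p = 0.00965), and 2 of its 3 other control peaks were unmatched too. Ebf2, a transcription factor of mesenchymal progenitors, had an unmatched intronic peak (4.68) and an unmatched stop codon interval (2.55), the latter 52283 bases from the nearest knockout peak. It fell from 8.0, 8.23 and 7.9 FPKM to 3.89, 4.27 and 5.26 FPKM (log2 change -0.73, SE 0.0964, limma adjusted p = 0.00261). Robo1, a receptor for Slit guidance cues, had an unmatched intronic peak of 4.64 lying 50 bases from a knockout peak, with 9.21 ± 0.317 FPKM in cHet against 9.97 ± 0.567 FPKM in cKO (SD, n = 3, limma adjusted p = 0.232). Vps13b (4.42), Slc35f6 (4.41), Frmd4a (4.29), Tbc1d17 (4.27) and Ube2q2 (4.21) followed, and of these Frmd4a rose (log2 change 0.28, limma adjusted p = 0.0214, lost in 4 of 14 alternative settings) and the other 4 did not pass. Srp54b (4.84) and Gm5763 (4.77) belong to families of near-identical copies, so their reads and peaks are uncertain.

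None of the 8 genes with the most peaks among those left with no knockout peak, at 1 FPKM or more in each genotype, passed the input test. Over all tested genes 36.2% passed it. Actg1, cytoplasmic gamma-actin, had 2 unmatched 3'UTR peaks of low enrichment (1.03 and 1.46) and no knockout peak within 21669 bases on the strand. Its input was 457, 518 and 552 FPKM in cHet against 520, 539 and 471 FPKM in cKO, with overlapping groups (log2 change 0.00, SE 0.099, limma adjusted p = 0.981). Many pseudogene copies of Actg1 exist, and the counting of reads shared with them is not stated. Slc35a3, a Golgi transporter of UDP-N-acetylglucosamine, had 3 unmatched peaks (0.96, 1.26 and 2.01), with 2.39 ± 0.236 FPKM in cHet against 2.71 ± 0.289 FPKM in cKO (SD, n = 3, limma adjusted p = 0.291). Reep1, a shaper of the endoplasmic reticulum, had 2 (1.27 and 1.79), with 3.4 ± 0.273 and 2.96 ± 0.067 FPKM (limma adjusted p = 0.132). Gm5763, Alg10b, Gm27003, Gm5512 and Stxbp3-ps completed the 8 genes of this kind, and none of the 5 passed the test (limma adjusted p from 0.193 to 0.98). They include pseudogenes and copies whose reads are uncertain.

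Genes with an unmatched peak rose in input RNA more often than they fell. Of 4047 such genes 2554 were tested, 621 rose (24.3%) and 308 fell (12.1%), with a median log2 change of 0.07. Over all 13575 genes tested 18.7% rose and 17.5% fell (36.2% called), with a median of 0.00. Genes whose control peaks were all matched were close to that background, with 1828 of 9545 rising (19.2%) and 1776 falling (18.6%). Of the 159 tested genes whose control peaks were all unmatched, 16 rose (10.1%), a smaller share than over all genes tested. As many as 28 fell (17.6%), about the share of all genes tested. Of genes with a single control peak, 17.0% fell where that peak was unmatched and 22.4% where it was matched. The input libraries also served as the background of the peak calls, so this measure is not wholly independent of the choice of peaks. With the libraries scaled to the same median, the genes with an unmatched peak had 544 rises and 387 falls, and without a filter on low values 486 and 416, with a median of 0.00. With the libraries scaled to the same sum, which moves the median of all genes by 0.12, 73.7% of all calls were rises instead of 51.6%, and the genes with an unmatched peak had 949 rises and 177 falls. The counts leaned on single libraries: 364 rises and 163 falls without cHet replicate 2, 397 and 189 without cKO replicate 2, and 406 and 228 without cKO replicate 3.

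The number of m6A peaks on a gene went with the same balance. Genes with an unmatched peak had 3.34 control peaks on average, against 2.2 for other genes with peaks. With 5 or more control peaks, 31.3% of tested genes with an unmatched peak rose and 7.38% fell, and without one 27.9% rose and 8.6% fell. With 3 or 4 control peaks 23.6% and 21.0% rose, with 2 17.4% and 18.8%, and with a single one 9.63% and 15.5%. From 3 peaks upwards the genes with an unmatched peak rose somewhat more often than the others, and with 1 or 2 peaks less often, differences that were not tested.

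**Figure D5:**
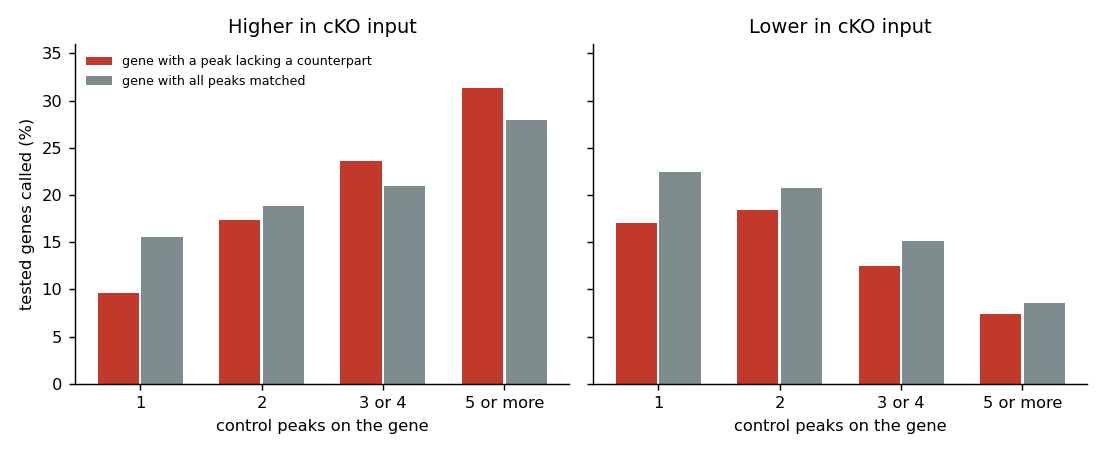
Bars give the percentage of tested genes called higher (left) or lower (right) in cKO input, by the number of control peaks on the gene, for genes with at least 1 unmatched peak (red) and genes whose control peaks are all matched (grey). Rises become more frequent with the number of peaks in both kinds of gene, to 31.3% and 27.9% at 5 or more.

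Seen from the peaks, the unmatched share varied with the level and the size of the change in the gene. The unmatched share was 7.64% on genes that fell, 11.1% on genes that rose and 9.66% on genes not called. Genes that fell had a higher cHet level (median 12.4 FPKM) than genes that rose (5.38 FPKM). At 1 to 5 FPKM the share was 12.6% both on genes that fell and on genes that rose, and 16.4% (62 of 378) on genes that fell by at least 0.5. Peaks on genes that fell by at least 1 on the log2 scale were unmatched in 19 of 140 cases (13.6%), and on genes that rose by as much in 35 of 245 (14.3%). On genes not tested in input RNA, among them Ihh, Ibsp and Snorc, it was 2008 of 8165 (24.6%).

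The 8 largest falls among genes with an unmatched peak included genes of cartilage matrix, tendon and membrane channels. Cthrc1, a secreted collagen triple helix repeat protein, was at 32.3, 34.7 and 33.2 FPKM in cHet against 14.4, 10.1 and 10 FPKM in cKO, and fell by 1.48 (SE 0.133, limma adjusted p = 0.000936). Its unmatched 3'UTR peak of 243 bases had a log2 enrichment of 1.09. Tnmd, tenomodulin of tendon cells, had both control peaks unmatched (1.15 and 1.51) and no knockout peak, and was at 1.19, 1.74 and 2.53 FPKM in cHet against 0.335, 0.0801 and 0.268 FPKM in cKO (log2 change -1.18, limma adjusted p = 0.00422). Matn1, Panx3 and Col9a3 are described above. Angptl1, Kcne4 and Chodl fell by 1.28, 1.22 and 1.14 (limma adjusted p = 0.00234, 0.00157 and 0.00225), with their groups apart.

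The largest rises were in genes of varied function. Exo1, an exonuclease of DNA repair, was at 6.48, 6.2 and 5.8 FPKM in cHet against 18.8, 21.2 and 21.4 FPKM in cKO (log2 change 1.58, SE 0.0716, limma adjusted p = 0.00031). Its unmatched exonic interval of 6636 bases had a log2 enrichment of 2.41, and its other 3 control peaks, from the stop codon onwards, were matched. Gpt, alanine aminotransferase, rose from 1.46, 1.59 and 1.89 FPKM to 7.07, 6.07 and 7.25 FPKM (log2 change 1.56, limma adjusted p = 0.000554), with an unmatched exonic peak of 125 bases (1.27). Spen, a large nuclear repressor related to the RBM15 proteins, had 2 of 7 control peaks unmatched (1.46 and 0.97) and rose from 2.58, 3.04 and 4.68 FPKM to 9.53, 10.5 and 10.2 FPKM (log2 change 1.35, limma adjusted p = 0.00204). Il18bp, Med18 and Zic2 rose by 1.53, 1.39 and 1.29 (limma adjusted p = 0.000406, 0.00031 and 0.00346). Thoc2l, a copy of Thoc2 whose reads are uncertain, rose by 1.58 (limma adjusted p = 0.00105). Snhg4, a small nucleolar RNA host gene, had the widest spread, with 0.0383, 0.872 and 0.0258 FPKM in cHet against 5.19, 1.06 and 11.1 FPKM in cKO (log2 change 2.09, SE 0.614, limma adjusted p = 0.0369), and its call did not pass in 7 of 13 alternative settings.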

How the data were processed

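Reads were handled with fastp and HISAT2 on build mm10, per the submitters' processing notes. Nothing in these sources names the peak caller, the program and annotation behind the expression values, or the scaling of IP to input. Deposited by the authors were FPKM values per gene for the 6 input libraries, per the file headers, and 1 peak list per genotype with a log2 fold enrichment and p-values for each peak, per the file headers. IP values per library were not analysed here. All sample columns were matched (0 left out). In each input library some FPKM values (313 to 346) were too low to stand for 1 whole fragment even at a very large depth. The depth is unknown and no count test was run.

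Starts were turned to 1-based positions and intervals were compared on the same chromosome and strand. Input RNA was tested on log2(FPKM + 1) with limma 3.58.1 in R 4.3.3 (lmFit, eBayes with trend, two-sided) over genes of mean FPKM of at least 1, with Benjamini-Hochberg adjusted p under 0.05, and genotype as the only term. The procedures were tested on simulated data. Named genes were Mettl14, the 10 most enriched unmatched peaks and the 8 genes with the most peaks that were all lost (both at 1 FPKM or more in each genotype). To these came the 8 largest rises and falls, and genes of the pathway lists with an unmatched peak. Only the better known of the last are described. The marker lists, also among the 15 hand-made lists (271 entries), gave no named genes. The peaks, lists and rules were chosen with earlier results of these data known. P-values measure the spread between biological replicates as labelled.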

Additional observations from a re-analysis of the deposited data

How the results depend on the processing

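The number of unmatched control peaks ranged from 4466 to 6402 over 5 other rules of overlap, strand and threshold, and was 3055 with peaks on genes of at least 1 FPKM in each genotype only. Counting exon blocks alone was not run, because the lists give no blocks. Over all genes, rises and falls numbered 1619 and 1792 with a mean of at least 5 FPKM, 3869 and 1382 with libraries scaled to one sum, and 1564 and 1325 with the replicate block. For genes with an unmatched peak they were 366 and 178, 949 and 177, and 378 and 169 in the same order, and 16 and 28 for genes all of whose control peaks were unmatched. The stricter filter tests fewer genes, and the cause of the other shifts was not tested. Without 1 replicate at a time, all rises ranged from 1515 to 2606 and falls from 1243 to 2503, and those of genes with an unmatched peak from 364 to 630 and 163 to 309. Deviations from the group mean had correlations of -0.08, 0.04 and -0.20 between same-numbered cHet and cKO libraries. Between differently numbered ones they ran from -0.25 to 0.29. With 3 libraries per group these values cannot show whether the numbers pair the libraries. For single named genes, 860 comparisons kept their side of the threshold, 36 lost it and 15 gained it, and none reversed; Srp54b (8), Alkbh5 (8), Snhg4 (7) and Frmd4a (4) lost it most often. Unknown depth limits what can be said of genes under 1 FPKM.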

Other observations

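A small set of genes carried many unmatched peaks. Dnm3, a dynamin, had 7 of 10 control peaks unmatched, Col6a5, a chain of type VI collagen, 6 of 8, and Veph1 6 of 6. These genes had cHet means of 1.00, 0.814 and 0.558 FPKM and cKO means of 0.494, 0.491 and 0.201 FPKM. Wnk1, a kinase of ion transport, had 6 of 15 with 9.09 FPKM in cHet against 11 FPKM in cKO. They were chosen after their counts were seen.

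By biotype of the transcript, 26.1% of peaks on lincRNA (197 of 755) and 17.6% on antisense RNA (214 of 1217) were unmatched, against 12.1% on protein-coding transcripts (4127 of 34157). Whether the counting used strand is not stated. By chromosome the share lay between 10.6% on chromosome 11 and 14.4% on chromosome 1 among autosomes, with 11.9% on the X chromosome.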
